A study of Capra hircus with 24 samples.

Results

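Wnt signalling genes were examined in dermal papilla cells, the mesenchymal cells at the base of the hair follicle, of goats (Capra hircus). The members were the Wnt ligands (WNT followed by a number), the Frizzled receptors (FZD followed by a number), the co-receptors LRP5, LRP6, ROR1, ROR2 and RYK, the R-spondins (RSPO), their receptors LGR4, LGR5 and LGR6, and PORCN and WLS, which prepare and export the ligands. They were found by gene symbol and not by measured value, and make up 43 of the 20326 genes listed. Earlier results of these data were known when the members were chosen. RNA was sequenced from papilla cells of 2 kinds of hair follicle, the secondary ones that make fine cashmere and the primary ones that make coarse guard hairs, from females and males in June (labelled early anagen, anagen being the growth phase of the hair) and in October (labelled anagen). The 8 groups, 1 for each combination of follicle type, month and sex, have 3 libraries each. The labels give no breed, age, allele or treatment for any group and do not say how the cells were obtained or cultured. Libraries of a group are numbered there as biological replicates with no animal named, so p-values measure the spread between these libraries, which may be technical.

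A Wnt ligand is lipid-modified by PORCN, carried to the cell surface by WLS, and bound on a target cell by a Frizzled receptor together with a co-receptor. With LRP5 or LRP6 the signal stabilises beta-catenin and switches on target genes, while ROR1, ROR2 and RYK serve signals that do not need beta-catenin. R-spondins bind LGR4, LGR5 and LGR6 and strengthen Wnt signals by keeping Frizzleds at the cell surface, and in the hair follicle Wnt signals between papilla and epithelium are needed for hair growth.

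The deposited values are normalised expression signals whose library totals run from 959766 to 1045876, and read depth is unknown. Whether they are per transcript length is not stated, so levels are compared between groups for each gene and not between genes. Of 17 papilla markers found, 13 reached the level for testing. VCAN had group means from 211 to 501 and LEF1 from 8.14 to 13.6, whereas CORIN stayed at or below 0.217. ALPL had a mean of 2.03 in primary June females and from 0.0133 to 0.733 in the other groups. SOX2 was at 0.257 to 0.333 in 3 secondary groups (both June groups and October females) and at 12.4 to 15.9 in the other 5. The summed keratinocyte and hair matrix markers (15 found) were 307 to 334 in secondary October females and 11.3 to 85.4 in the other groups. The immune marker PTPRC was listed at or near 0 in each group, with a highest mean of 0.00667. The sum of the 5 immune markers found was 20.3 to 26.4 in secondary June males and 3.4 to 11.7 in the other groups. The endothelial marker PECAM1 had a mean of 2.00 in secondary June males and at most 0.347 in the other groups. In bulk RNA, fewer cells of a type and less RNA per cell cannot be told apart. Growth stage, season and collection go together in these groups and cannot be told apart either.

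A gene entered the tests if its value was 1 or more in no fewer than 3 libraries. This held for 30 of the 43 members, and 22 were at or above 1 in all 24 libraries. All 10 Frizzleds passed this level, as did the 5 co-receptors, PORCN, WLS, RSPO1, RSPO2, RSPO3, LGR4 and LGR6. Among the ligands 8 of 19 passed, namely WNT2, WNT5A, WNT5B, WNT6, WNT9A, WNT10B, WNT11 and WNT16. WNT6 and WNT16 passed through 3 libraries alone, those of secondary October females. WNT11 passed through the same 3 and 1 library of secondary October males. These ligands were tested because they stood high in that group, so its higher value for them is given as a description of the libraries. LGR6 would not have passed without its June libraries, nor FZD9 without its October ones. Both stay in all counts below, and their differences between the months are likewise descriptions. The ligands that did not pass were WNT1, WNT2B, WNT3, WNT3A, WNT4, WNT7A, WNT7B, WNT8A, WNT8B, WNT9B and WNT10A, and RSPO4 and LGR5 did not pass either. The highest value of any of these 13 members in any library was 0.37, for WNT3A and WNT10A. WNT9B was listed at 0 in all 24 libraries. LGR5, known as a stem cell receptor of the follicle epithelium, was listed at 0 in 17 libraries and reached 0.06.

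**Figure D1:**
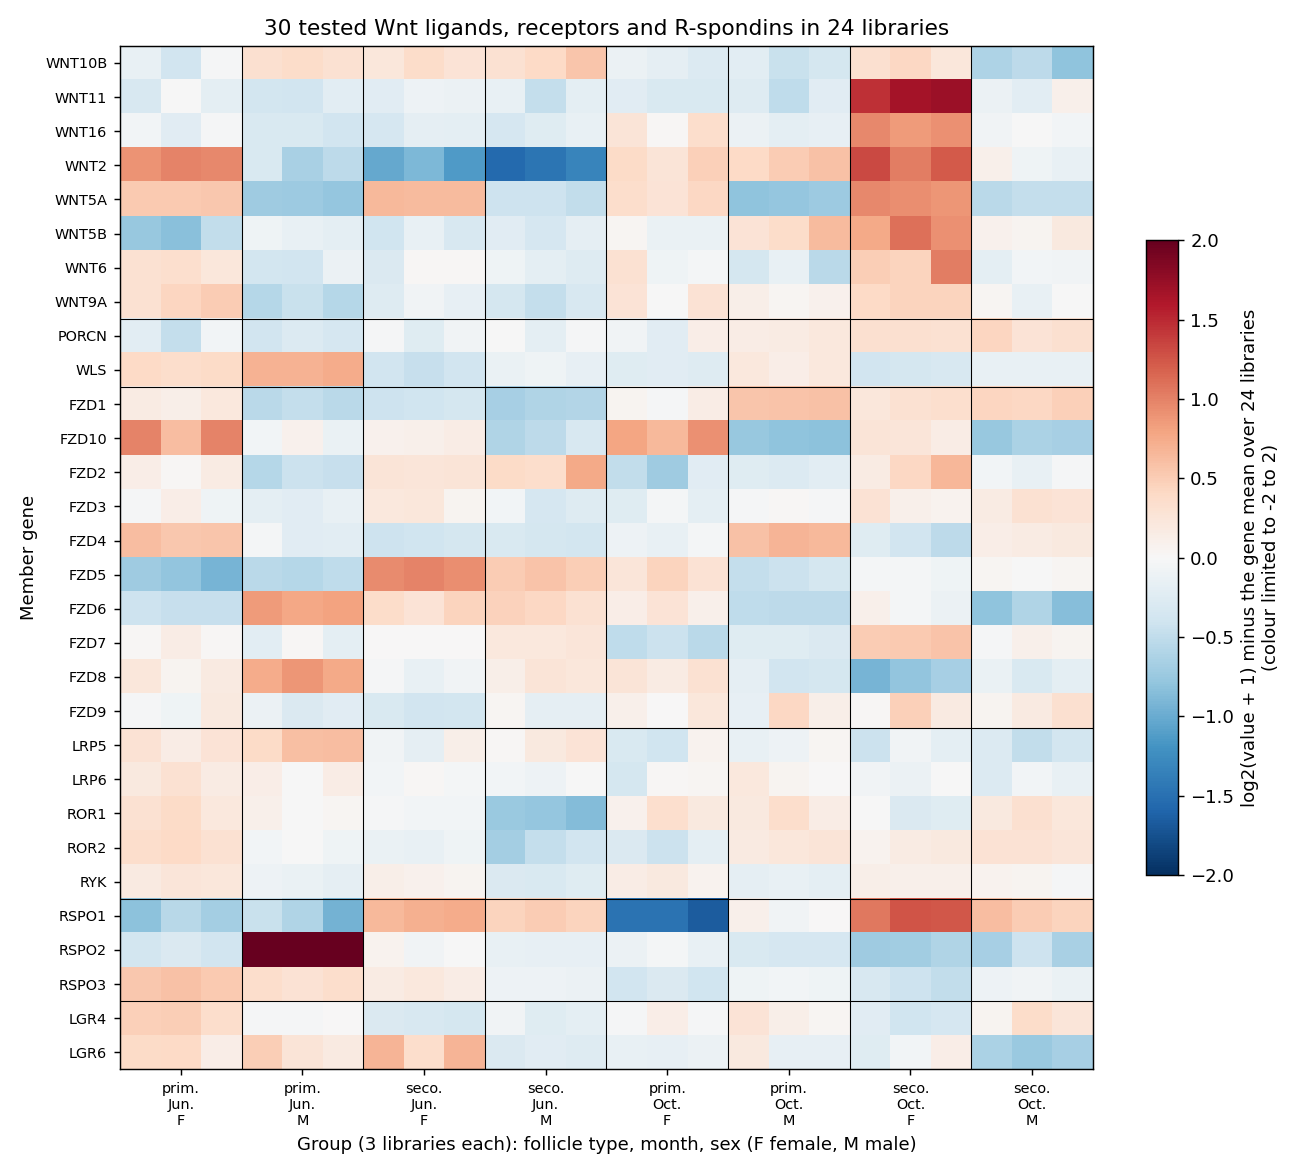
Level of the 30 tested members in each of the 24 libraries, as log2(value + 1) minus the gene's mean over the libraries (colour). Rows are genes grouped by role and columns are libraries grouped by follicle type, month and sex. RSPO2 stands out in the 3 primary June male libraries, and 4 of the 5 ligands that did not owe their test to the secondary October libraries (WNT2, WNT5A, WNT5B and WNT9A) have their highest group mean in secondary October females.

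All differences are between means of log2(value + 1), so changes of weakly expressed genes are understated. The call threshold was an adjusted p of 0.05 (limma, Benjamini-Hochberg over all 13049 genes tested). By the F test over the 8 groups all 30 tested members differed, where 91.5% of all genes did. Secondary cells against primary cells in June gave 23 members called of 30 (61.9% of all genes), 8 higher (31.6%) and 15 lower (30.3%). In October 20 of 30 were called (31.5% of all genes), 12 higher (17.5%) and 8 lower (14.1%). Without WNT6, WNT11 and WNT16, which the filter passed through high secondary October libraries, 17 of 27 were called, 9 higher and 8 lower. In October males alone 14 were called (18.5% of all genes), 6 higher and 8 lower. With library totals set equal, the October comparison over both sexes gave 11 members higher and 10 lower. Of all 13049 genes 1649 were then higher and 2691 lower. From June to October 27 of 30 changed in secondary cells (62.9% of all genes), with 18 risen (29.0%) and 9 fallen (33.9%). Without those 3 ligands 24 of 27 changed, 15 up and 9 down, and in males alone, among all 30, 20 changed (56.5% of all genes), 11 up and 9 down. The 27 still hold FZD9, among those up, and LGR6, among those down, which the filter passed through libraries of mostly 1 month. In primary cells 20 of 30 changed, a share close to the 60.9% of all genes, with 7 risen (28.6%) and 13 fallen (32.3%).

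The interaction of follicle type and month, which is the October difference between follicle types minus the June one, was called for 21 of 30 members, where 46.2% of all genes were called. It was positive for 19 of them (23.3% of all genes) and negative for 2, FZD5 and FZD6 (22.9%). Without WNT6, WNT11 and WNT16 it was positive for 16 of 27 and negative for 2. In females alone it was positive for 17, those 3 ligands among them (20.7%), and negative for 4 (19.5%), and in males alone positive for 9 (21.6%) and negative for 5 (22.3%). The median of the absolute difference over the 30 members was 0.30 in June and 0.24 in October between follicle types, against 0.18 and 0.09 over all genes. Between the months it was 0.43 in secondary and 0.22 in primary cells, against 0.18 and 0.175 over all genes. These medians include WNT6, WNT11 and WNT16, which the filter passed through high secondary October libraries. They were not computed without these 3 ligands, so the October and secondary medians are given as descriptions. These comparisons share libraries, so a gene's values in them are not independent of each other.

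Fewer members differed in the same direction in both sexes. Between follicle types in June 3 members were higher in each sex (FZD5, RSPO1 and WNT5A) where 14.8% of all genes were. In each sex 10 were lower (FZD4, FZD8, FZD10, RSPO3, LRP5, ROR1, ROR2, RYK, WNT2 and WLS) where 12.9% were, and 2, FZD6 and RSPO2, went in opposite directions where 6.87% did. In October FZD3, FZD7, RSPO1 and WNT5A were higher in each sex (4 members, 4.28% of all genes), and FZD4, RSPO2 and WLS were lower in each (3 members, 2.47%). The sexes were called in opposite directions for 4 members in October, FZD5, WNT2, WNT5B and WNT10B, where 3.82% of all genes were. In secondary cells 6 members rose from June to October in each sex (FZD1, ROR2, WNT2, WNT5B, WNT9A and PORCN) where 12.2% of all genes did, and 5 fell in each (FZD5, FZD6, FZD8, RSPO2 and LGR6) where 16.3% did. FZD7 alone went in opposite directions there (6.24% of all genes). In primary cells 1 member, WNT5B, rose in each sex (11.7% of all genes) and 4 fell in each (RSPO3, LGR6, LRP5 and WLS, 14.6%), while 8 were called in opposite directions in the sexes (FZD1, FZD4, FZD6, RSPO1, RSPO2, ROR2, WNT2 and WNT9A), where 6.08% of all genes were. The interaction was positive in each sex for 4 members (RSPO3, ROR2, WNT2 and WLS, 7.38% of all genes), negative in each for 1 (FZD5, 7.61%) and opposite for 5 (FZD2, FZD4, FZD8, RSPO1 and RSPO2, 7.42%). Library values are therefore given for each sex below. Some differences of members, and those of other Wnt pathway genes, are over both sexes together.

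Most of the 5 ligands that did not owe their test to the secondary October libraries (WNT2, WNT5A, WNT5B, WNT9A and WNT10B) were high in secondary October females. Of these 5 ligands 4 had their highest group mean there, all but WNT10B, and of the 27 tested members without WNT6, WNT11 and WNT16 there were 7, where 16.0% of all genes had it there. In secondary October cells all 5 were lower in males than in females, where 20.9% of all genes were lower. Between June and October in secondary cells 4 of the 5 rose in females (all but WNT10B), where 24.2% of all genes rose. In males 3 rose (WNT2, WNT5B and WNT9A), where 25.3% rose, and WNT10B fell. WNT6, WNT11 and WNT16 also had their highest group mean in secondary October females, which is how they entered the tests.

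WNT2, a ligand of beta-catenin signals, changed in both follicle types. In June secondary libraries had 0.92, 1.09 and 0.78 in females and 0.33, 0.41 and 0.56 in males. Primary libraries had 6.25, 6.74 and 6.63 in females and 2.15, 1.49 and 1.7 in males. Every primary library lay above every secondary one in June, with a difference of -1.46 (SE 0.0702, adjusted p = 2.59e-14), -1.97 in females and -0.95 in males.

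By October WNT2 in secondary cells had reached 8.7, 6.97 and 8.1 in females and 3.18, 2.68 and 2.51 in males. Each October library lay above each June one in secondary cells, and the rise was 1.80 (SE 0.0702, adjusted p = 6.66e-16). In primary cells the sexes moved towards each other, by -0.58 in females to 4.1, 3.67 and 4.42 and by 0.99 in males to 4.13, 4.54 and 4.84. Secondary cells were then above primary cells in October females (0.82) and below them in October males (-0.54), and the mean over the sexes was not called (0.14, adjusted p = 0.146). The interaction of follicle type and month was 1.60 (SE 0.0992, adjusted p = 7.53e-12), positive in females (2.78) and in males (0.41).

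WNT5A, the best known ligand of signals that do not need beta-catenin, differed between the sexes in all 4 combinations of follicle type and month. Secondary females had 161, 160.0 and 159 in June and 199.9, 196 and 189 in October, and secondary males 76.7, 76.4 and 72.6 and then 70.2, 73.8 and 73.3. Primary females had 148, 148 and 149.7 in June and 131, 124 and 137 in October, and primary males 62.6, 61.6 and 59.9 and then 58.1, 59.7 and 61.7. Every female library lay above every male one. Males minus females was -1.08 in secondary June cells, -1.42 in secondary October, -1.26 in primary June and -1.12 in primary October, with SE 0.0403. Follicle type made a smaller difference, higher in secondary cells by 0.20 in June and 0.42 in October, and called in both sexes in both months.

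WNT11, WNT16 and WNT6 were near the floor outside secondary October females. WNT11, a ligand of signals without beta-catenin, had 4.19, 4.94 and 5.17 there and 0.73, 0.62 and 1.01 in the next group, secondary October males. WNT16 had 1.54, 1.36 and 1.46 there and up to 0.66 elsewhere. WNT6 had 1.22, 1.15 and 2.19 there and up to 0.98 elsewhere. In males, WNT11 did not differ detectably between follicle types in October (0.25, adjusted p = 0.111) nor between months in secondary cells (0.19, adjusted p = 0.135).

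The secondary October female libraries were also those with the high keratinocyte marker sum. KRT5 and KRT14, keratins of basal epithelial cells, had means of 197 and 77.5 there, against at most 27.9 and 29.1 in the other groups, and EPCAM, an epithelial surface protein, had 4.69 against at most 0.83. Over both sexes together 10 of the 12 keratinocyte markers tested were higher and 0 lower in secondary than in primary October cells. Of all genes 17.5% were higher and 14.1% lower. EPCAM would not have entered the tests without its high secondary October female libraries, so this count is given as a description of the libraries. In October females the marker sum was 307 to 334 in secondary and 41.8 to 47.1 in primary cells. In October males it was lower in secondary cells (48.9 to 56.6) than in primary ones (78.2 to 85.4). The part of these markers in the ligand values was not tested. In secondary males the marker sum was 41.0 to 42.7 in June and 48.9 to 56.6 in October, and the mean of KRT5 was 0.0233 and then 18.5. In these males the change from June to October was 1.40 for WNT2, 0.36 for WNT5B and 0.34 for WNT9A, and each was called.

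WNT5B, a close relative of WNT5A, rose from June to October in both follicle types and both sexes. In secondary females it went from 1.43, 1.91 and 1.57 to 4.43, 5.93 and 5.05, and in secondary males from 1.75, 1.54 and 1.83 to 2.41, 2.34 and 2.7. In primary females it went from 0.9, 0.8 and 1.28 to 2.32, 1.95 and 1.94, and in primary males from 2.04, 1.92 and 1.8 to 2.88, 3.15 and 3.97. The months did not overlap within any of these 4 pairs. The rise was 0.79 (SE 0.0757, adjusted p = 5.52e-09) in secondary and 0.60 (SE 0.0757, adjusted p = 5.19e-07) in primary cells.

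WNT10B, a ligand of beta-catenin signals, fell in secondary males from 4.5, 4.84 and 5.51 in June to 1.9, 2.1 and 1.55 in October, a change of -1.06. Secondary females had 4.2, 4.76 and 4.39 in June and 4.56, 4.92 and 4.17 in October, which overlapped. The difference between the sexes in this change was -1.09 (adjusted p = 6.41e-07). In primary cells males were higher in June (4.52, 4.75 and 4.47, against 3.0, 2.42 and 3.35 in females) by 0.51.

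WNT9A, another ligand of beta-catenin signals, was highest in primary June females, at 5.26, 5.84 and 6.25, and in secondary October females, at 5.71, 5.91 and 5.9. Primary June males had 2.42, 2.74 and 2.42, lower than females by 0.94 (SE 0.0817). Towards October primary females fell by 0.23 and primary males rose by 0.61.

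**Figure D2:**
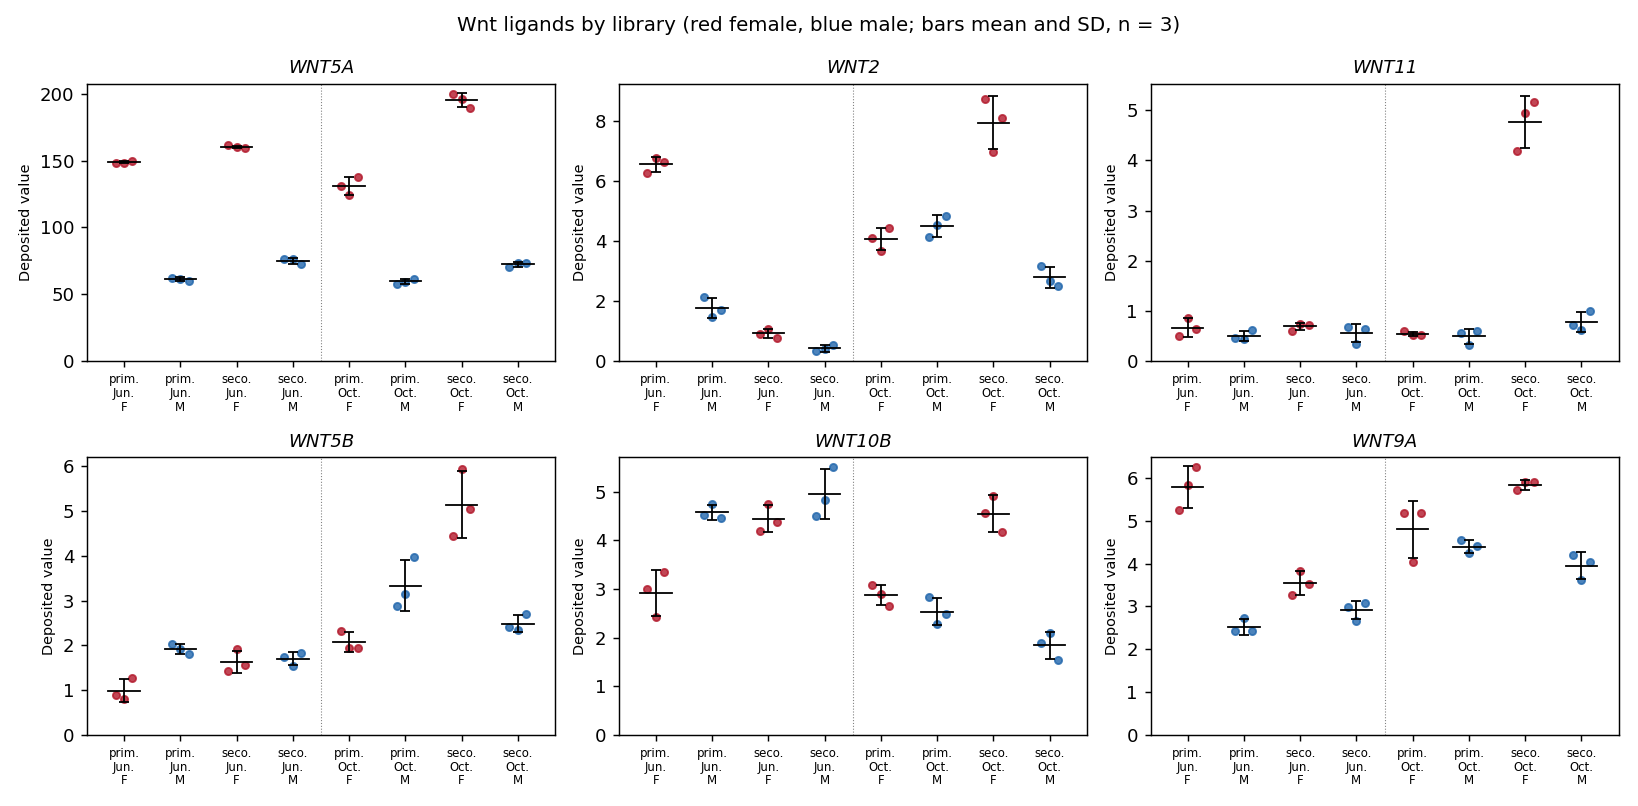
Deposited values of 6 Wnt ligands in each library (points, red female and blue male) with group mean and SD (n = 3), by follicle type, month and sex. WNT5A is higher in every female library than in every male one, and the WNT11 values of 4.19 to 5.17 are those of secondary October females.

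WLS, the carrier that takes Wnt ligands to the cell surface, was lower in secondary cells. In June primary libraries had 112, 109 and 111 in females and 138, 139 and 143 in males, and secondary ones 65.0, 61.6 and 65.0 in females and 77.8, 79.9 and 75.7 in males. The follicle types did not overlap, and the difference was -0.81 (SE 0.0259, adjusted p = 1.34e-17). By October primary cells had fallen by 0.57, in both sexes, to 72.0, 72.8 and 70.8 in females and 98.4, 93.0 and 98.2 in males. Secondary cells did not change detectably (0.019, 95% interval -0.035 to 0.072). The difference between follicle types was thus -0.22 in October and was called in both sexes. Males were above females without overlap in each of the 4 combinations, by 0.28 and 0.21 in secondary cells and 0.34 and 0.42 in primary cells, in June and October respectively.

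PORCN, the enzyme that attaches the lipid to Wnt proteins, rose from June to October by 0.42 in secondary and 0.34 in primary cells (SE 0.0667). In October the secondary libraries (8.38 to 9.47) and primary ones (5.60 to 7.94) did not overlap, with a difference of 0.27. It was 0.37 in females (adjusted p = 0.00363) and not called in males (0.17, adjusted p = 0.229). Within primary females the October rise was not called (0.19, adjusted p = 0.109).

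Over both sexes together the Frizzleds were called in both directions, which need not hold in each sex. FZD6, for example, was higher in secondary cells in June females and lower in June males. In June 4 of the 10 were higher (FZD2, FZD5, FZD6 and FZD7) and 4 lower (FZD1, FZD4, FZD8 and FZD10) in secondary cells, where 31.6% and 30.3% of all genes were. In October 3 were higher (FZD2, FZD3 and FZD7) and 4 lower (FZD4, FZD6, FZD8 and FZD10), where 17.5% and 14.1% were. Over the months 5 rose (FZD9 among them) and 4 fell in secondary cells, where 29.0% and 33.9% of all genes did. In primary cells 2 rose and 4 fell, where 28.6% and 32.3% did. For only 10 genes, the June counts and those between months in primary cells are near the shares of all genes.

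FZD5, a receptor used in beta-catenin signalling, was high in secondary June cells, with 12.3, 12.7 and 12.2 in females and 8.84, 9.27 and 8.7 in males. Primary June cells had 3.2, 2.98 and 2.62 in females and 3.75, 3.65 and 3.85 in males. The follicle types did not overlap, and the difference was 1.42 (SE 0.0448, adjusted p = 1.16e-17), 1.77 in females and 1.06 in males.

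In October FZD5 had fallen in secondary cells to 5.71, 5.72 and 5.47 in females and 6.12, 5.89 and 6.12 in males. Primary females had risen to 7.14, 8.4 and 7.42, and primary males had 3.95, 4.13 and 4.39, where the change was not called (0.12, adjusted p = 0.12). In October secondary cells were below primary ones in females (-0.38) and above them in males (0.45). The interaction of follicle type and month was -1.38 (SE 0.0634, adjusted p = 3.79e-14), negative in females (-2.15) and males (-0.61).

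FZD1 rose in secondary cells from June to October, from 111, 112 and 116 to 173, 182 and 186 in females and from 92.6, 96.6 and 97.9 to 199.7, 196 and 206 in males. The months did not overlap, and the rise was 0.87 (SE 0.0306, adjusted p = 1.13e-16). Primary males rose as well, from 101, 106 and 101 to 216, 218 and 221 (1.08). Primary females fell slightly, from 166, 159.5 and 170.1 to 153, 144 and 163 (-0.11, adjusted p = 0.0491), and the months overlapped there.

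FZD4, known as the receptor of Norrin as well as of Wnts, was lower in secondary cells in both months, by 0.57 (SE 0.0484) in June and 0.38 in October. Secondary libraries had 3.29 to 3.64 in June and primary ones 3.93 to 7.77, without overlap. Within primary cells females fell from 7.77, 7.33 and 7.42 in June to 4.35, 4.19 and 4.6 in October, and males rose from 4.57, 3.93 and 3.94 to 7.61, 8.2 and 8.0. The sexes thus exchanged places, with changes of -0.66 and 0.80.

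FZD10 was higher in females than in males without overlap in all 4 combinations of follicle type and month. In primary October cells females had 9.68, 8.67 and 10.6 and males 2.64, 2.54 and 2.48, and in primary June cells females had 11.3, 8.42 and 11.3 and males 4.91, 5.56 and 4.59. Males minus females was -0.60 and -0.90 in secondary June and October cells and -0.90 and -1.58 in primary June and October cells (SE 0.0945). Between follicle types it was lower in secondary cells in June in both sexes (-0.75 and -0.45) and in October in females (-0.57), and in October males the difference was 0.11 (adjusted p = 0.492).

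FZD6, often described as a restraint on beta-catenin signals, and FZD8, a receptor for them, were both highest in primary June males. FZD6 had 6.04, 5.71 and 5.85 there, 1.95, 1.85 and 1.84 in primary June females and 1.77, 1.73 and 1.72 in primary October males. FZD8 had 32.2, 35.3 and 32.4 there, 22.2, 19.6 and 21.3 in primary June females and 16.4, 14.2 and 14.6 in primary October males. For both genes the sexes were in the opposite order in primary October cells, where females had 3.28, 3.73 and 3.22 of FZD6 and 22.6, 21.0 and 23.3 of FZD8. In secondary cells both fell from June to October in each sex, by 0.76 (SE 0.0549) and 0.56 (SE 0.0503).

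FZD2 and FZD7 are receptors bound by several ligands. In June FZD7 differed between follicle types by 0.14, with 0.35 in males and -0.06 in females (adjusted p = 0.514). In October it had 2.59, 2.65 and 2.74 in secondary October females and 1.49, 1.71 and 1.63 in secondary October males, against 0.75 to 1.15 in primary October cells, without overlap, and the October difference was 0.66 (SE 0.0503, adjusted p = 4.22e-10). FZD2 differed by 0.56 in June (SE 0.0821), with 0.98 in males and 0.15 in females (adjusted p = 0.303), and by 0.53 in October, with 0.89 in females and 0.17 in males (adjusted p = 0.359). Its June libraries were 5.41, 5.23 and 7.25 in secondary and 2.32, 2.63 and 2.58 in primary males, and 4.85, 4.83 and 4.89 and 4.37, 4.01 and 4.48 in females. FZD3 ran from 2.69 to 4.71 and FZD9 from 0.45 to 1.62 over the 24 libraries, and FZD9 was at or above 1 in 9 of them. Most of those 9 were October libraries.

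The 5 co-receptors were all lower in secondary June cells than in primary ones, by 0.13 for RYK up to 0.59 for ROR1. In females all 5 were lower, where 24.3% of all genes were, and in males 4 were (all but LRP6), where 28.9% were. Over both sexes together in October ROR2 and RYK were higher and ROR1 lower in secondary cells, and LRP5 and LRP6 were not called. For ROR2 the October difference was 0.45 in females and 0.057 in males (adjusted p = 0.613). ROR1 had -0.38 in females and 0.017 in males (adjusted p = 0.907). RYK had -0.03 in females (adjusted p = 0.598) and 0.21 in males.

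ROR1, a receptor for WNT5A, had 13.8, 13.4 and 12.6 in secondary June males, its lowest group, and 27.2, 29.8 and 28.1 in secondary October males. Secondary females had 23.3, 22.8 and 22.8 in June and 23.5, 19.3 and 20.0 in October. Males thus rose by 1.04 while the change in females was not called (-0.13, adjusted p = 0.127). Primary cells had 23.5 to 31.1 in June and 25.3 to 30.4 in October.

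ROR2, the other WNT5A receptor of this family, had 18.8, 18.5 and 19.5 in secondary June females and 12.6, 14.6 and 15.7 in secondary June males, and 26.6, 27.5 and 25.8 and 19.9, 20.6 and 19.6 in the primary June groups. In October secondary cells had risen in both sexes, to 21.8, 23.4 and 24.0 and 25.7, 25.5 and 24.7, by 0.53 (SE 0.0462, adjusted p = 1.12e-09). Primary cells fell in females to 16.8, 15.1 and 18.0 and rose in males to 23.7, 24.4 and 24.9. The interaction of follicle type and month was 0.72 (SE 0.0654, adjusted p = 4.66e-09), positive in females (0.93) and males (0.52).

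LRP5 and LRP6 are the co-receptors of beta-catenin signals. LRP5 fell from June to October by 0.37 in secondary and 0.52 in primary cells (SE 0.08), and its primary libraries had 7.62 to 11.0 in June and 4.94 to 7.15 in October. LRP6 kept within 7.26 and 12.0 over the 24 libraries. RYK, a receptor with an inactive kinase domain, was higher in females than in males without overlap in all 4 combinations and was called in 3, with -0.37 in secondary June, -0.35 in primary June and -0.31 in primary October cells for males minus females. In secondary October cells it was -0.073 (adjusted p = 0.149).

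**Figure D3:**
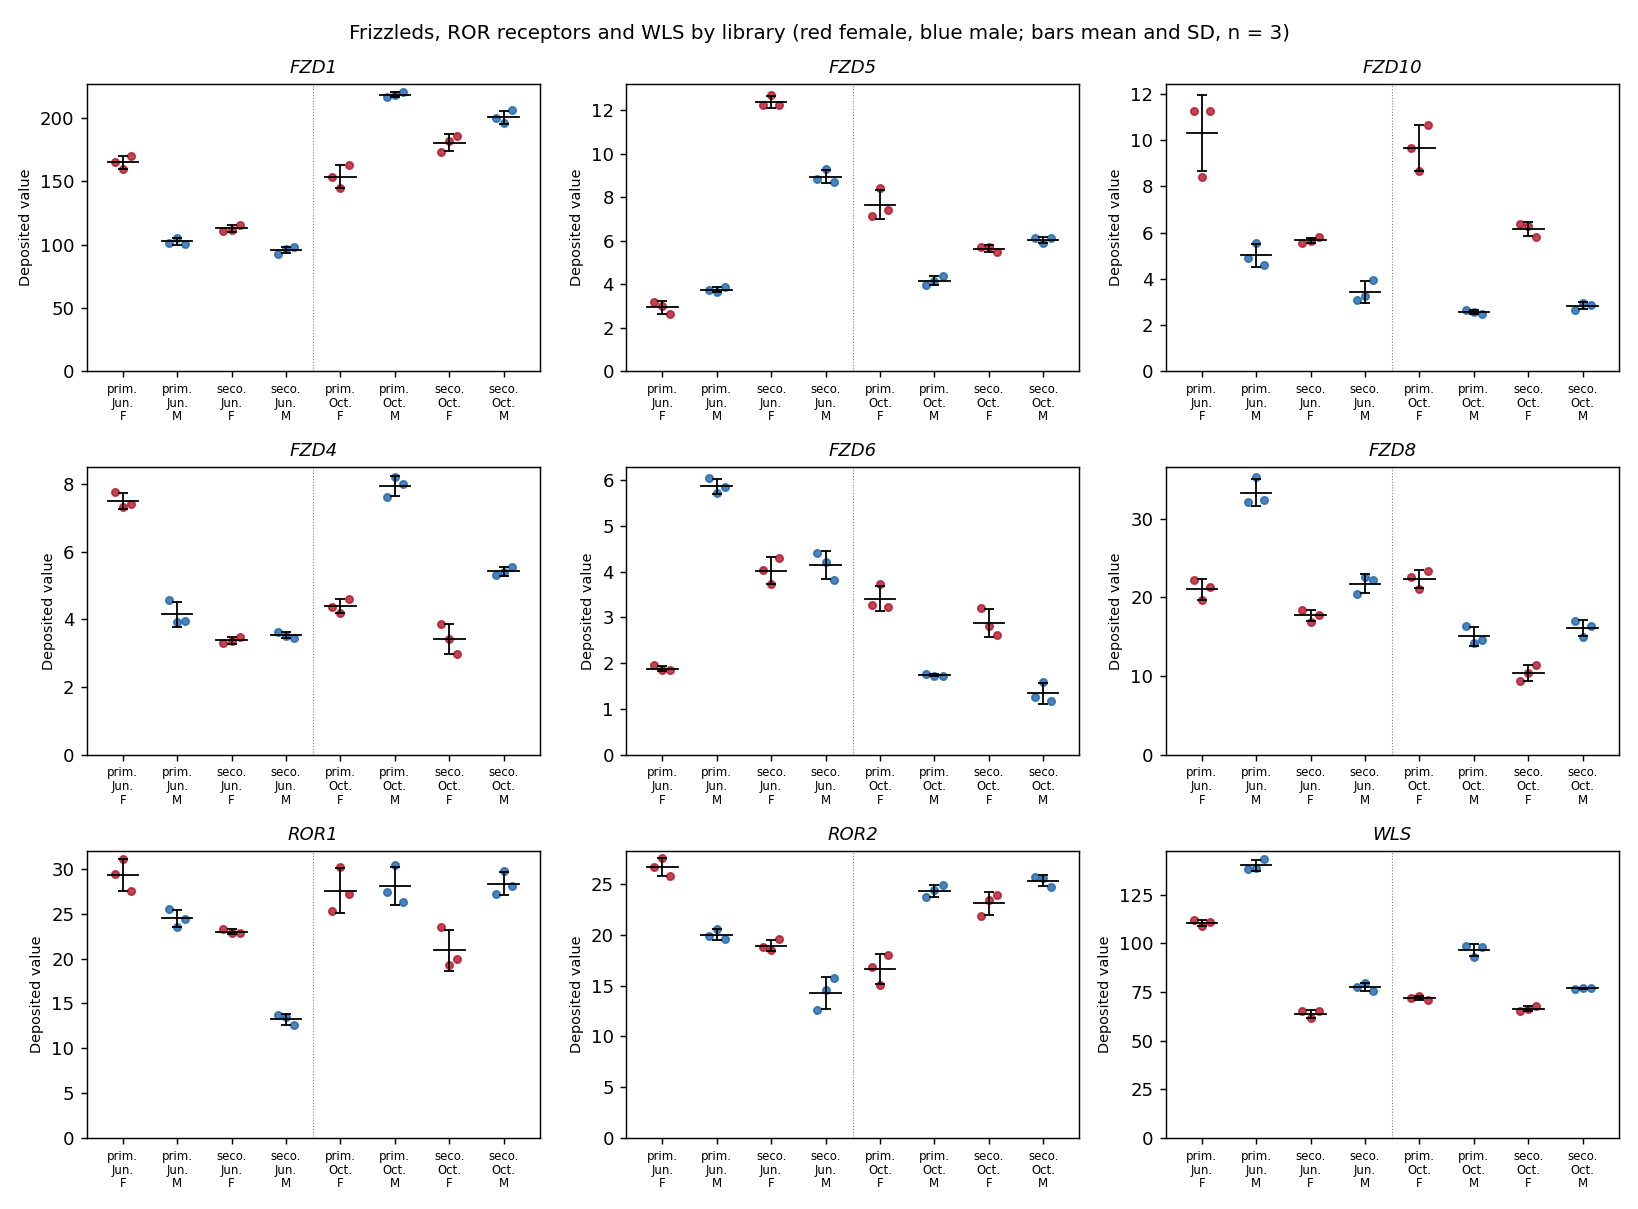
Deposited values of 6 Frizzleds, ROR1, ROR2 and WLS in each library (points, red female and blue male) with group mean and SD (n = 3), by follicle type, month and sex. FZD5 is highest in the secondary June groups, FZD10 is higher in females within each follicle type and month, and WLS is highest in primary June cells.

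The R-spondins differed widely between follicle types. RSPO1 was higher in secondary cells in both months and both sexes. In June secondary libraries had 12.7, 13.3 and 13.6 in females and 10.8, 11.4 and 10.8 in males, and primary ones 3.92, 4.92 and 4.42 and 5.43, 4.72 and 3.53. In October secondary libraries had 17.1, 19.9 and 19.7 in females and 12.4, 11.4 and 10.8 in males, and primary ones 2.13, 2.13 and 1.74 and 8.32, 7.34 and 7.79. The follicle types did not overlap in either month. The difference was 1.26 in June (SE 0.0693, adjusted p = 3.07e-13) and 1.62 in October (adjusted p = 1.95e-14). In June it was 1.39 in females and 1.13 in males, and in October it was 2.73 in females and 0.51 in males. Primary cells moved in opposite directions from June to October, by -0.85 in females and 0.68 in males.

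RSPO2, an R-spondin long studied in coat growth, was high in a single group. Primary June males had 49.5, 47.4 and 48.1, and the other 21 libraries lay between 5.66 and 10.5, highest in secondary June females at 10.5, 9.44 and 9.87. Males exceeded females in primary June cells by 2.52 (SE 0.0609, adjusted p = 2.16e-19), with 7.44, 7.95 and 7.37 in females. In June secondary cells were lower than primary ones in males (-2.34) and higher in females (0.35), so that the mean over the sexes, -0.99, has the opposite sign to the value in females. In October secondary cells were lower in both sexes (-0.57 and -0.25), without overlap of the follicle types.

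Between the months RSPO2 fell in primary males by 2.50 to 7.83, 7.68 and 7.63 and rose in primary females by 0.25 to 9.05, 9.62 and 8.89. In secondary cells it fell in both sexes, by 0.67 in females to 5.66, 5.76 and 6.22 and by 0.41 in males to 5.9, 7.19 and 5.99. Primary June males also had the highest sum of 7 dermal sheath and smooth muscle markers, 17960 to 18570 against 10430 to 15010 in the other groups. The part of this in the RSPO2 value was not tested.

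RSPO3 was lower in secondary cells in June, with 212, 218 and 210.1 in females and 176, 175 and 174 in males, against 276, 283 and 273 and 241, 230.2 and 241 in primary cells. The follicle types did not overlap, and the difference was -0.41 (SE 0.0284, adjusted p = 2.32e-11), called in both sexes. In October it was not called (-0.04, 95% interval -0.10 to 0.019). Primary cells fell to 144, 154 and 143 in females and 177, 183 and 179 in males, by 0.66 over the sexes. Secondary females fell by 0.59, and secondary males did not change detectably (0.0071, adjusted p = 0.896).

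Of the R-spondin receptors, LGR4 was highest in primary June females, at 16.5, 16.7 and 15.0, and had 9.28, 9.12 and 8.86 in secondary June females. It was lower in secondary June cells by 0.45 (SE 0.0532), called in females (-0.76) and not in males (-0.15, adjusted p = 0.0903). LGR6, which was at or above 1 in 11 libraries, had 1.93, 1.33 and 1.92 in secondary June females and 0.5, 0.57 and 0.53 in secondary June males. LGR6 values fell from June to October in both follicle types and both sexes, to 0.54, 0.76 and 1.0 and 0.18, 0.09 and 0.15 in the same order. LGR6 passed the filter through its June libraries, so this fall is given as a description of the libraries.

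**Figure D4:**
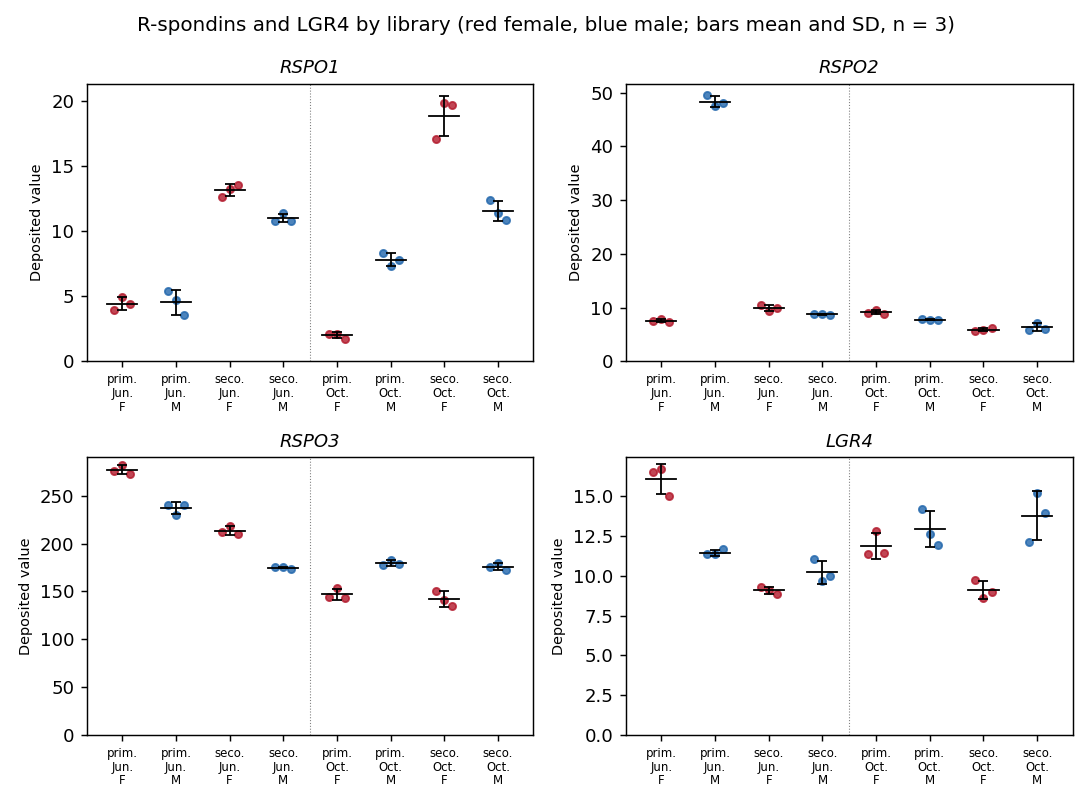
Deposited values of RSPO1, RSPO2, RSPO3 and LGR4 in each library (points, red female and blue male) with group mean and SD (n = 3), by follicle type, month and sex. RSPO2 is at 47.4 to 49.5 in the 3 primary June male libraries, and RSPO1 is higher in secondary cells within each sex and month.

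The sexes differed for many members within each follicle type and month. Males against females gave 16 members called of 30 in secondary June cells (39.5% of all genes), 3 higher (20.9%) and 13 lower (18.6%), and with library totals set equal the same comparison gave 5 higher and 11 lower. In secondary October cells 21 were called, 7 higher and 14 lower (40.4% of all genes, 19.5% higher and 20.9% lower), and without WNT6, WNT11 and WNT16 there were 18 of 27, 7 higher and 11 lower. In primary cells 23 were called in June, 8 higher and 15 lower (45.4% of all genes, 23.1% higher and 22.3% lower). In primary October cells 17 were called, 8 higher and 9 lower (33.6% of all genes, 15.8% higher and 17.8% lower). FZD10, RYK and WNT5A were above in females without overlap in all 4 combinations, where 2.08% of all genes were, and WLS alone of the members was above in males, where 1.69% were.

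The differences between follicle types and months themselves differed between the sexes. The difference between follicle types did so for 17 of 30 members in June (41.2% of all genes) and for 21 in October (26.7% of all genes), or 19 of 27 without WNT6, WNT11 and WNT16. The change from June to October did so for 22 members in secondary cells, 11 positive and 11 negative, where 37.7% of all genes did (17.3% positive and 20.4% negative), and without those 3 ligands for 19 of 27, 11 positive and 8 negative. With library totals set equal it did so for 23 members, 8 positive and 15 negative, and the median over all genes was -0.12 in place of -0.019. In primary cells 20 did (36.8% of all genes).

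**Figure D5:**
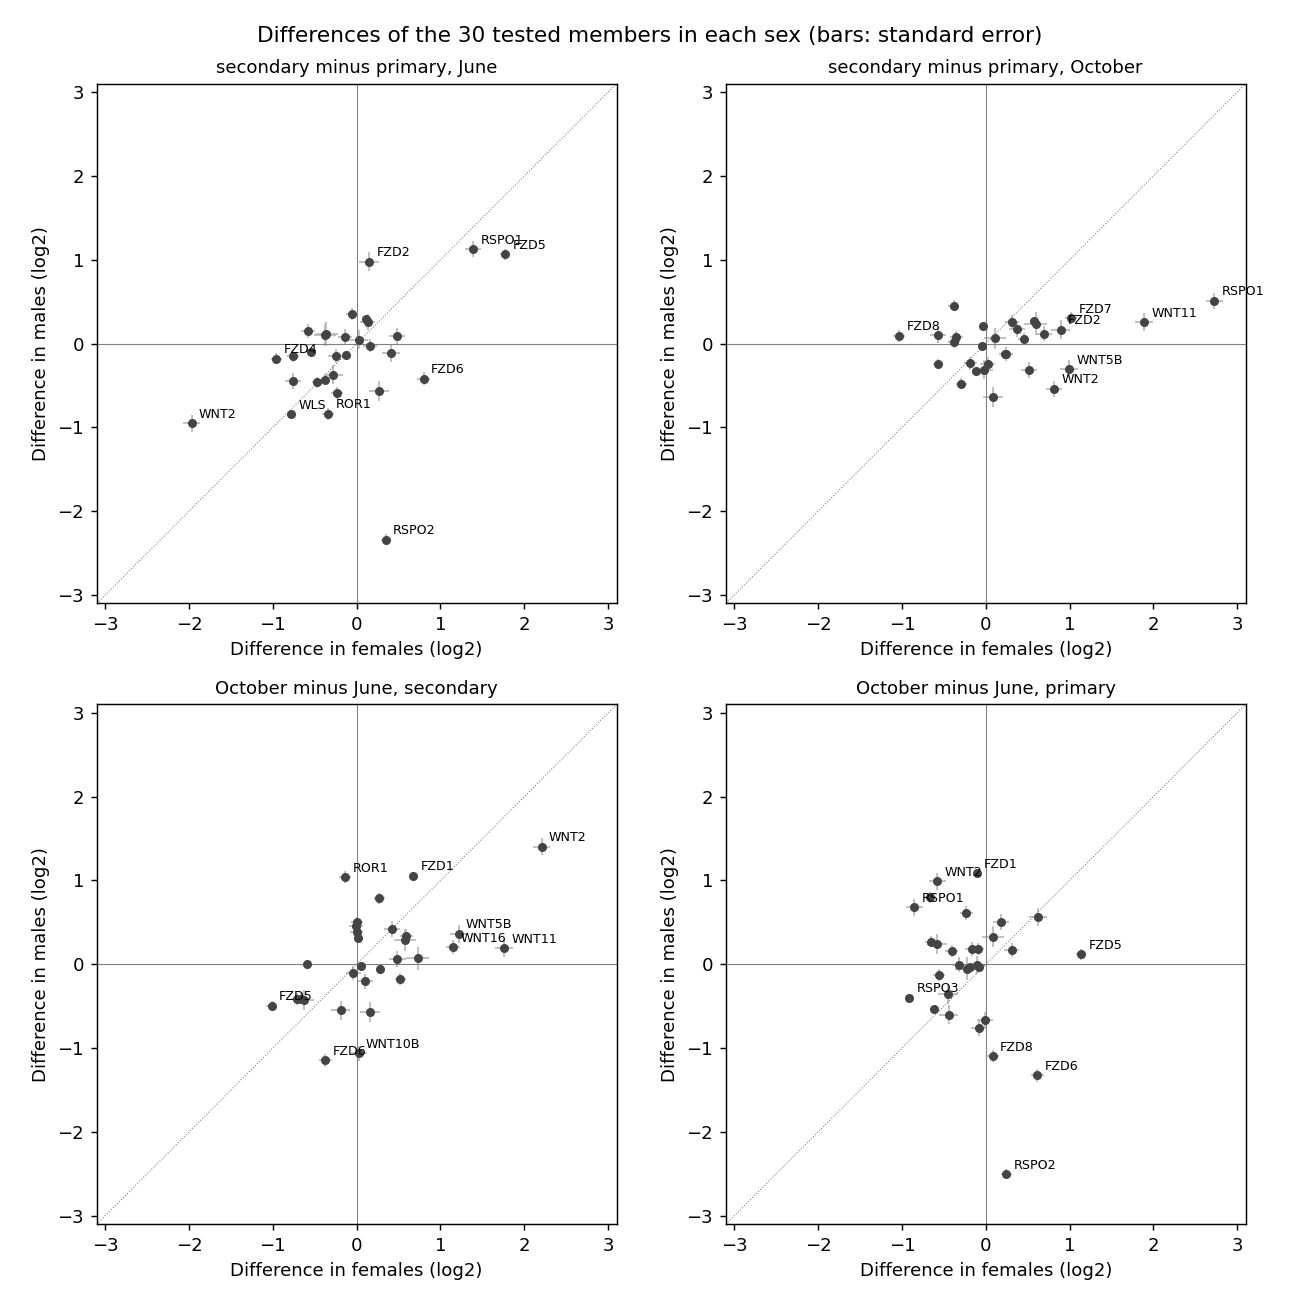
Difference in females (horizontal axis) against the difference in males (vertical axis) for the 30 tested members, on the log2(value + 1) scale, in every comparison of follicle types or months. Points off the diagonal have unequal differences in the sexes, with RSPO2 at 0.35 in females and -2.34 in males between follicle types in June.

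Other Wnt pathway genes were counted from lists chosen by function, with earlier results of these data known. The counts called, means and differences given for them are over both sexes together and need not hold in each sex. In primary cells the change from June to October differed between the sexes (male minus female) for some of them. Of all 13049 genes 36.8% differed in this way, 2311 positively and 2488 negatively. Among 10 tested secreted and membrane inhibitors it did so positively for 5 and negatively for 2. Among 9 tested feedback and target genes it did so positively for 3 and negatively for 4. The shares of all genes to read the counts below against are 31.6% higher and 30.3% lower in secondary June cells and 17.5% and 14.1% in October. Between the months they are 29.0% risen and 33.9% fallen in secondary cells, and 28.6% and 32.3% in primary cells. Of 22 tested genes of the intracellular relay, 16 were lower and 3 higher in secondary cells in June (median -0.21, against 0.004 for all genes), and 4 were higher and 4 lower in October (median -0.04). CTNNB1, which encodes beta-catenin, was higher in secondary June cells by 0.31, and BCL9, a beta-catenin co-activator, was lower by 0.67. TCF7L2, a transcription factor that beta-catenin binds, was lower by 0.70 in June and fell in primary cells from June to October by 0.74.

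Of 10 tested secreted and membrane inhibitors, 8 were lower and 2 higher in secondary June cells (median -0.44). SFRP1, which binds Wnt ligands outside the cell, had a mean of 8.3 in secondary and 32.7 in primary June cells and rose in secondary cells to 35.2 in October. By October 7 of the 10 had risen in secondary cells and 3 had fallen (median 0.30), and 3 rose and 6 fell in primary cells (median -0.36). DKK3, of the Dickkopf family, was lower in secondary June cells by 1.25. DKK1, a blocker of LRP5 and LRP6, was listed at 0 in all libraries of 7 groups.

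Of 9 tested feedback and target genes, AXIN2, a direct target that is widely used to read beta-catenin signalling, rose from June to October in both follicle types. Its mean went from 0.53 to 3.12 in secondary cells (a difference of 1.38) and from 0.632 to 2.83 in primary cells (1.26). Both June means lay below the level of 1 used for testing, and AXIN2 may have passed through its October libraries. The rise is therefore given as a description of the libraries. CCND1, a cyclin, fell in both, by 0.65 and 0.53. In the list as a whole 3 rose and 4 fell in secondary cells, and 1 rose and 4 fell in primary cells. NKD1, a feedback inhibitor, was higher in secondary cells by 0.47 in June and 0.68 in October.

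Of 15 tested planar polarity and non-canonical partners, 3 were higher and 5 lower in secondary June cells, and 5 rose and 5 fell in secondary cells from June to October. PRICKLE1, a core planar polarity gene, rose by 1.04 in secondary and 0.69 in primary cells. Of 11 tested glypicans and other surface binders, 2 were higher and 5 lower in secondary June cells. SDC2, a heparan sulphate proteoglycan, was among the lower ones (-0.68) and rose in secondary cells by October (0.95). GPC4, a glypican, fell from June to October in primary (-0.77) and secondary cells (-0.37).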

How the data were processed

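Total RNA of 24 libraries in 8 groups of 3 was sequenced paired-end after a NEBNext Ultra preparation, per the labels' protocols. Each deposited file gives 1 normalised expression signal per gene, and how the authors scaled it is not given in the sources used here. Kallisto 0.46.1 and sleuth 0.30.0 are named in the submitters' processing notes. The signals are not counts, so depth is unknown and no counting interval was computed. Of 20326 genes, the 13049 at or above 1 in no fewer than 3 libraries were tested with limma 3.58.1 (R 4.3.3) on log2(value + 1), with a mean per group, a trended and robust variance, and Benjamini-Hochberg adjustment over all tested genes. All 8 groups shared the fit, and both sexes weighed equally in a comparison of follicle types or months. All 43 members matched RefSeq gene IDs with the same symbol. Members called in at least 1 comparison by at least 1.5-fold, with a group mean of at least 1, are given with library values. For several of these members only some groups are printed. The other members are given by ranges and counts. The members and lists were chosen with earlier results of these data known. Alternatives were another pseudocount, filter or scaling, compared groups fitted alone, a replicate block and leaving out each replicate; fits of each sex alone were chosen after seeing the data.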

Additional observations from a re-analysis of the deposited data

Results flagged for a closer look

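The differences given here are those of at least 1 on the log2(value + 1) scale between effects measured under the same contrast, called by limma's test of the difference itself. Between October and June, the difference between follicle types changed for WNT2 (1.60), FZD5 (-1.38) and WNT11 (1.04). In males alone the WNT11 value was 0.21 (adjusted p = 0.29). WNT11 entered the tests through its high secondary October libraries, so its values here are descriptions of those libraries.

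The remaining values are male minus female. In the June difference between follicle types they were -2.68 for RSPO2, -1.22 for FZD6 and 1.02 for WNT2. In the October difference between follicle types they were -2.22 for RSPO1, -1.64 for WNT11, -1.36 for WNT2, -1.30 for WNT5B and 1.13 for FZD8. In the change from June to October in secondary cells they were -1.57 for WNT11, -1.09 for WNT10B and 1.18 for ROR1. In the change from June to October in primary cells RSPO2 had -2.75, FZD6 -1.94, FZD8 -1.18 and FZD5 -1.02. In that same change WNT2 had 1.57, RSPO1 1.53, FZD4 1.46 and FZD1 1.19. The RSPO2 values in June and in primary cells share the 3 primary June male libraries.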

How the results depend on the processing

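Depth is unknown, and with 3 libraries per group their number limits the precision. The counts of members called stayed within 1.5 times of those reported under every alternative run. Of 102 values named for 24 members, 91 kept their direction and call under every alternative that gave one, and 11 did not. These 102 were picked as called by at least 1.5-fold in the main fit. The fits of each sex alone gave only 27 of them. Of those 27, 24 kept direction and call in females alone and 22 in males alone. In females alone RSPO2 turned its direction, with 0.35 between follicle types in June, 0.25 from June to October in primary cells and -0.91 for the interaction. In males alone the call was lost for WNT11 (0.25 between follicle types in October, 0.19 from June to October in secondary cells, 0.21 for the interaction), WNT16 (0.21 from June to October in secondary cells) and FZD5 (0.12 from June to October in primary cells). With a pseudocount of 0.1 the difference between the sexes lost its call for WNT16 between follicle types in October (-0.91), and for WNT2 (-0.51) and WNT6 (-1.23) from June to October in secondary cells. The cause was not tested. Leaving out 1 replicate ended no call of a named value, and the count called between follicle types ran from 22 to 24 in June and from 20 to 21 in October. Same-numbered libraries did not deviate together (correlations from -0.281 to 0.294 over 12 pairs of groups), and 13 of 36 correlated best with their own number. With the replicate number as a block, 23, 20, 27, 21 and 21 members were called between follicle types in June and October, between months in secondary and primary cells, and in the interaction.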
